A study of Mus musculus with 4 samples.

Results

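The replication-dependent histone genes of the mouse were taken as all genes whose symbol starts with Hist1h, Hist2h, Hist3h or Hist4h in the GENCODE vM1 annotation of mm9. This gave 70 genes, set against 21418 protein-coding genes with an autosomal start. Of the 70, 56 lay in Hist1 on chromosome 13, 10 in Hist2 on chromosome 3, 3 in Hist3 on chromosome 11 and 1 in Hist4 on chromosome 6. They comprised 6 H1, 20 H2A, 19 H2B, 12 H3 and 13 H4 genes, and 3 of them (Hist1h2aj, Hist2h3c2 and Hist3h2bb-ps) were annotated as pseudogenes. Where neighbouring members of a cluster were more than 250 kb apart they were treated as separate blocks, which divided Hist1 into a first block of 24 genes (chr13:21807632-22135545), a second block of 31 genes (chr13:23622919-24026720) and Hist1h2al alone (chr13:51298057-51298434). Hist2 spanned chr3:96023839-96082924, Hist3 chr11:58762413-58770176 and Hist4 chr6:136752589-136752900.

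Binding of RAD21 was measured by chromatin immunoprecipitation and sequencing (ChIP-seq) in undifferentiated mouse embryonic stem cells of the R1/E line (ESCs, day 0) and in embryoid bodies derived from them (EBs, differentiation day 12). All the cells carried a bacterial artificial chromosome transgene that expressed GFP-tagged Rad21, and chromatin was precipitated with a goat antibody against GFP. The tagged protein carried its tag at the C-terminus and was made beside that of the endogenous gene, and stably transfected clones had been sorted for GFP-positive cells. The controls were precipitated with a goat IgG isotype antibody and are called IgG libraries, although their descriptions name input DNA. There was 1 library for each of the 4 combinations of cell type and antibody, so that no comparison has a replicate check and none was tested. The intervals given are 95% exact intervals for counting error only. An embryoid body is a mixture of cell types, so a change in the make-up of the culture and a change within a cell cannot be told apart. The libraries held 14133430 (ESC RAD21), 8006161 (EB RAD21), 13002597 (ESC IgG) and 7067703 (EB IgG) aligned reads, and levels are given as RPM, the reads per 1000000 autosomal reads of the library.

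Replication-dependent histone genes supply the histones that package newly copied DNA, and they are transcribed mainly in S phase. They lie in clusters with genes of all classes intermixed, mostly lack introns, and give mRNAs that end in a conserved stem-loop bound by SLBP in place of a poly(A) tail. The clusters assemble into a nuclear compartment, the histone locus body, through the coactivator NPAT. RAD21 is the kleisin subunit of cohesin, a ring complex that holds sister chromatids together and collects at sites bound by the zinc finger protein CTCF, where loops of chromatin are anchored.

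The label of the group was checked by the stem-loop. The letters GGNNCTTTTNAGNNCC, searched on the strand of the gene, occurred within 1200 bp after the start of 63 of the 70 histone genes (90%), compared with 69 of 21418 coding genes (0.322%), of which 8 were not members. The 7 genes without it in this window were Hist1h2aj, Hist1h2an, Hist1h3g, Hist1h2be, Hist1h4a, Hist1h2al and Hist2h2be. Hist1h2be is annotated with a long intron, so that its annotated start lies far from the short coding copy of the gene. The stem-loops of 1 gene of each class are shown to let the sameness of the element be seen, with the 16 letters of the search in capitals, in mm9 sequence on the strand of the gene (Hist1h1c, Hist1h2bj and Hist1h3d on the plus strand, the others on the minus strand).
Hist1h1c, chr13:23831376-23831401: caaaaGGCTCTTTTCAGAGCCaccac
Hist1h2ag, chr13:22134347-22134372: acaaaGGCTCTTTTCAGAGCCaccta
Hist1h2bj, chr13:22135502-22135527: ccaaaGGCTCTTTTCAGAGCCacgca
Hist1h3d, chr13:23668108-23668133: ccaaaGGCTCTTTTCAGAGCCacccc
Hist1h4c, chr13:23789953-23789978: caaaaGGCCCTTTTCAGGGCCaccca

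Of the 70 genes, 26 formed 13 divergent pairs of 1 H2A and 1 H2B gene, with starts between 168 and 306 bp apart. The promoters differed by class. The octamer ATGCAAAT, searched on both strands of the 250 bp before the start, was found in 7 of 20 H2A and 9 of 19 H2B genes and in none of the H1, H3 or H4 genes, compared with 1.63% of coding genes. The stretches of divergent partners overlap, so 1 match can count for both genes of a pair. All the H2A genes with the octamer, except Hist1h2ab, had a divergent H2B partner that also had it. The letters CCAAT, on either strand, were found in all 6 H1, 19 of 20 H2A, all 19 H2B and 10 of 12 H3 genes but in 4 of 13 H4 genes (coding genes 34.7%). The TATA box letters TATAAA were found in 33 of the 70 (47.1%; coding genes 12.4%). Of the divergent pairs, the sequence between Hist1h2ah and Hist1h2bk (chr13:22127513-22127689, plus strand) is shown because both genes share all of it and its reads; the octamer and the CCAAT letters of either strand are in capitals.
Hist1h2ah to Hist1h2bk: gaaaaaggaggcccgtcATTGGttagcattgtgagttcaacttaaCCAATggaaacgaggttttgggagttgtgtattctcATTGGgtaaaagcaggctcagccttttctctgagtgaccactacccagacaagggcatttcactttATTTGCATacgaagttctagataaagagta

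Reads were counted from 1 kb before to 1 kb after each gene start. Because the genes are so close, 53 of the 70 shared part of their window with another member, and the 70 windows merged into 40; neighbouring genes are therefore not independent values. Sequence identity between members set a further limit. Of the 35-base positions in the windows of the histone genes, a median of 75.6% occurred once in the genome, compared with 98.8% for coding genes. The deposited reads were nearly all at such positions: between 0.154% and 0.194% of the reads near gene starts in the 4 libraries lay where a 35-base sequence is repeated, although 10.1% of the positions there are repeated. The lowest unique shares were in an inverted duplication inside the first Hist1 block, whose longest repeated runs were 14835 bp (chr13:21888815-21903649) and 14817 bp (chr13:21924031-21938847). The 6 genes there (Hist1h2bq, Hist1h2ao, Hist1h4m, Hist1h4n, Hist1h2ap and Hist1h2br) had unique shares of 0 to 4.80%, and 5 of them had 0 reads in every library. Hist1h4n had 0 reads in ESC RAD21, 1 in EB RAD21, 1 in ESC IgG and 2 in EB IgG. RAD21 at these genes was thus not measurable, and no ratio is given for them singly. The 167 bp between Hist1h2bq and Hist1h2ao (chr13:21902069-21902235, plus strand) and between Hist1h2ap and Hist1h2br (chr13:21925445-21925611, minus strand) were identical letter for letter, with the CCAAT letters in capitals.
Hist1h2bq to Hist1h2ao: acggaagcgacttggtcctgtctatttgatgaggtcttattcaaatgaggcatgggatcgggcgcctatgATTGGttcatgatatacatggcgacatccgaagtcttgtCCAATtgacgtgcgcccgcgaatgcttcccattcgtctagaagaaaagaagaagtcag

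RAD21 at the starts of the histone genes was in ESCs near its level at coding genes and little above the control. The median histone gene had 10 reads in the ESC RAD21 library (range 0 to 35), 10 in EB RAD21 (0 to 29), 9 in ESC IgG (0 to 19) and 5 in EB IgG (0 to 19). In the merged windows the RAD21 level was 0.448 RPM per kb in ESCs and 0.695 in EBs, over IgG levels of 0.383 and 0.457. Over all coding genes it was 0.437 in ESCs and 0.460 in EBs, over IgG levels of 0.348 and 0.323. The ratio of RAD21 to IgG was 1.17 in ESCs (1.04 to 1.32; coding genes 1.26) and 1.52 in EBs (1.32 to 1.75; coding genes 1.42), so that both intervals held the value of the coding genes.

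For single genes the ratio was taken after 1 read was added to each count, and 2 was used as the threshold. In ESCs 6 of the 70 genes (8.57%) reached a RAD21 to IgG ratio of 2, where 16.6% of coding genes did, and the median ratio was 0.943 against 1.18. Hist1h3d, an H3 gene, had 18 ESC RAD21 and 3 ESC IgG reads, a ratio of 4.36, and in EBs 8 and 6 reads. Hist1h4c, an H4 gene, had 33 reads from RAD21 against 9 from IgG in ESCs, and 29 against 6 in EBs, ratios of 3.12 and 3.84. It was the only gene to stand among the 4 highest in both cell types. Hist1h2aa and Hist1h2ba, a divergent pair that encodes the H2A and H2B types of the testis, had 24 and 21 ESC RAD21 reads over 6 IgG reads each, ratios of 3.28 and 2.89. Hist1h4k (2.18) and Hist1h2be (2.04) were the remaining ones. The window of Hist1h2be lay at its annotated start, far from the short coding copy, and overlapped the window of Hist1h1e. At the other end, Hist1h2ab in ESCs had 5 RAD21 and 13 IgG reads (0.39) and Hist1h3b had 6 and 12 (0.49).

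In EBs 14 of the 70 genes (20%) reached a ratio of 2, where 25.6% of coding genes did, and the median was 1.34 against 1.25. The highest ratios rested on few control reads. Hist2h4, the H4 gene of Hist2, had 13 EB RAD21 reads and 1 EB IgG read, a ratio of 6.27, while its ESC reads were 15 and 12. Hist1h4a had 12 reads and 1 read in EBs (5.82) and 14 and 8 in ESCs. Hist1h3h had 8 reads and 1 read in EBs (4.03) and 6 and 6 in ESCs. The linker histone gene Hist1h1a had 7 RAD21 and 10 IgG reads in EBs (0.65), and the H2B gene Hist1h2bp had 8 and 10 (0.73).

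By class, the H4 genes had the highest RAD21 level per kb. Their merged windows had 228 ESC RAD21 and 133 ESC IgG reads, a ratio of 1.58 (1.27 to 1.97), whereas the windows of the other classes together had 400 and 364, a ratio of 1.01 (0.874 to 1.17). Without Hist1h4c the H4 ratio in ESCs was 1.45 (1.15 to 1.82), and without Hist1h4c and Hist4h4 it was 1.39 (1.08 to 1.79). Both of these intervals overlapped that of the other classes. In EBs the ratio was 1.78 (1.39 to 2.30) for H4 and 1.43 (1.20 to 1.69) for the other classes, with intervals that overlapped. Among the single other classes the EB ratio ran from 1.28 (0.814 to 2.03) for H1 to 1.65 (1.29 to 2.11) for H2B. In ESCs the ratio was 0.859 (0.588 to 1.25) for H1, 0.999 (0.802 to 1.24) for H2A, 1.06 (0.865 to 1.30) for H2B and 1.06 (0.801 to 1.39) for H3, with intervals that overlapped one another. The median unique share was 95.5% for H1, 67.8% for H2A, 68.4% for H2B, 75.2% for H3 and 87.7% for H4, and its part in the class ratios was not tested.

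**Figure D1:**
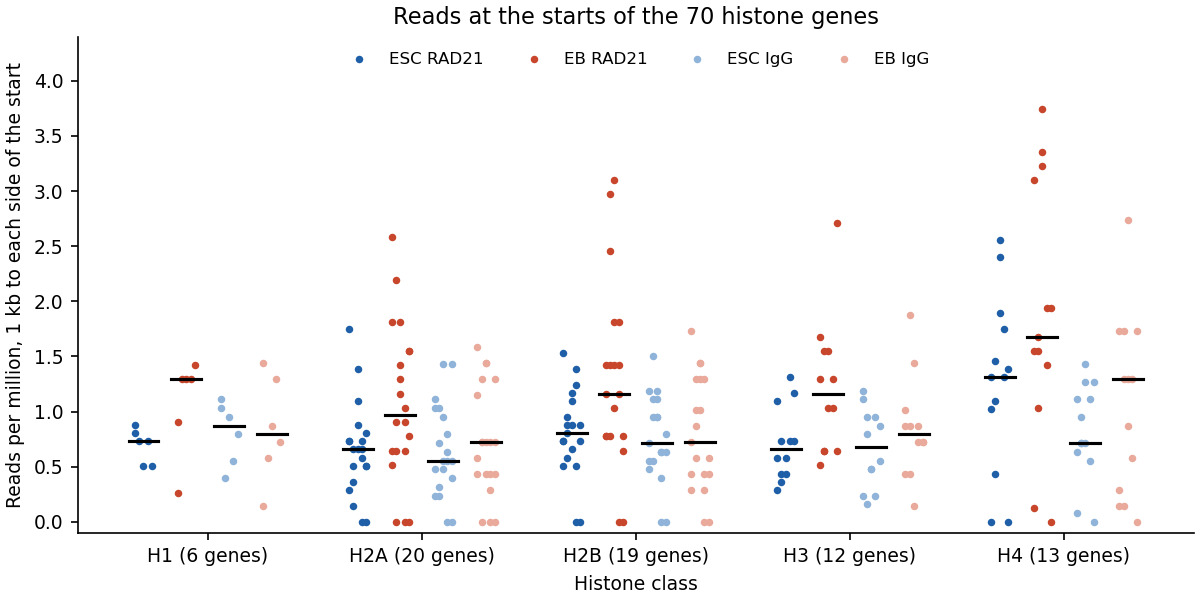
Each point is 1 of the 70 histone genes, grouped by class on the x axis, with RPM from 1 kb before to 1 kb after the start in each of the 4 libraries on the y axis; black bars are medians over genes. The EB RAD21 points (red) sit above the ESC RAD21 points (dark blue) in every class by median, and the highest points belong to H4 genes.

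Comparison of the cell types gave the clearest difference. In the merged histone windows RAD21 reads numbered 623 in ESCs and 546 in EBs, a level 1.55 times higher in EBs after scaling to depth (1.38 to 1.74), while the same ratio was 1.05 over all coding genes. Over the coding genes of chromosome 13, which holds Hist1, it was 1.15 (1.12 to 1.19). The IgG libraries moved in the same direction but less, from 490 to 321 reads, a ratio of 1.19 (1.03 to 1.37). The IgG ratio was 0.929 over all coding genes and 1.02 over those of chromosome 13. The RAD21 ratio was 1.55 for H1, 1.66 for H2A, 1.64 for H2B, 1.73 for H3 and 1.48 for H4, with lower bounds between 1.04 and 1.34, so that no class stood apart from the others. By block it was 1.62 (1.29 to 2.02) in the first Hist1 block, 1.54 (1.31 to 1.82) in the second, 1.66 (1.15 to 2.40) in Hist2, 1.85 (0.999 to 3.43) in Hist3 and 1.32 (0.761 to 2.25) in Hist4. Hist1h2al alone went the other way, with 9 ESC reads and 0 EB reads (0 to 0.898). The median GC was 49.5% for histone and 51.3% for coding windows. In the GC class from 44.3 to 49.4%, which held 29 histone genes, the RAD21 ratio was 1.62 for the histone genes and 1.07 for coding genes. The IgG ratio there was 1.27 (1.06 to 1.51) and 0.941. In the class from 49.4 to 53.2%, which held 25, the RAD21 ratio was 1.55 and 1.08, and the IgG ratio 0.971 (0.739 to 1.27) and 0.881. The part of base composition in these ratios was not tested.

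Summed over the blocks, the EB ratio was higher at the gene starts than along the rest. Outside peaks the start windows had an EB over ESC RAD21 ratio of 1.53 (1.36 to 1.72), the rest of the gene blocks 1.07 (1.02 to 1.13) and the 50 kb to each side 0.913 (0.864 to 0.965), with intervals that did not overlap. The order did not hold in every block: in Hist3 the rest of the block was at 2.00 (1.10 to 3.67) and the starts at 1.85, and around Hist1h2al the start was at 0 and the flanks at 0.898. The IgG ratio followed the same order with smaller steps, at 1.20 (1.04 to 1.38), 1.03 (0.977 to 1.09) and 0.890 (0.837 to 0.946). Of 23563 autosomal windows of 100 kb with at least 200 ESC reads, the middle 90% had RAD21 ratios between 0.672 and 1.38.

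**Figure D2:**
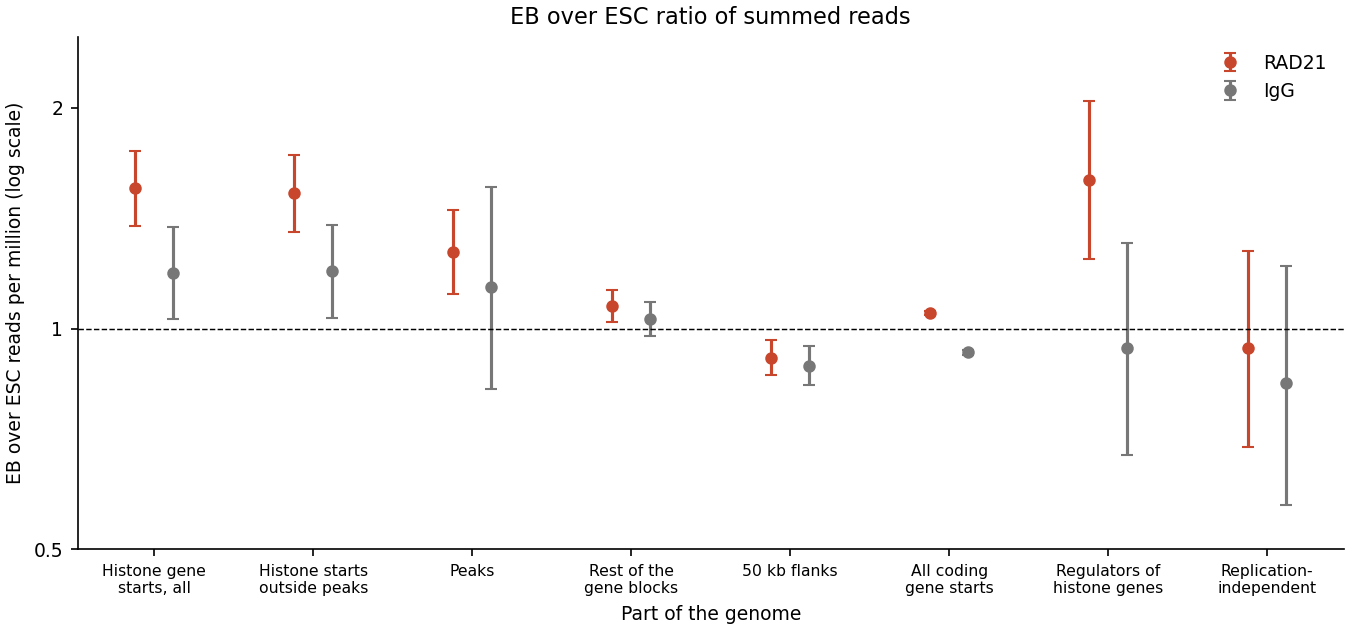
Points are EB over ESC ratios of summed RPM (y axis, log scale) for RAD21 (red) and IgG (grey) in each set on the x axis, and bars are 95% intervals for counting error. RAD21 at the histone gene starts is at 1.55 and the rest of the gene blocks at 1.07, and the regulators of histone genes are at 1.59.

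Finer bins placed the EB reads on both sides of the coding sequence. In the 300 bp before the start, RAD21 averaged 0.403 RPM per kb in ESCs and 0.929 in EBs per histone gene, where coding genes had 0.463 and 0.490. IgG in this stretch was 0.548 in ESCs and 0.715 in EBs at histone genes, above the 0.325 and 0.302 at coding genes. In ESCs, then, the mean of the control was above that of RAD21 just before the histone starts, with 145 and 116 reads. These stretches were not merged, so reads between the genes of a divergent pair counted for both, and no interval was taken. From 500 to 1000 bp after the start, past the coding sequence of most of these short genes, RAD21 was 0.585 in ESCs and 0.967 in EBs, over IgG of 0.447 and 0.499. In the first 500 bp, over the coding sequence, all 4 libraries were low, between 0.136 and 0.229 RPM per kb, and the unique share fell to 24.9% in the lowest 100 bp bin.

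**Figure D3:**
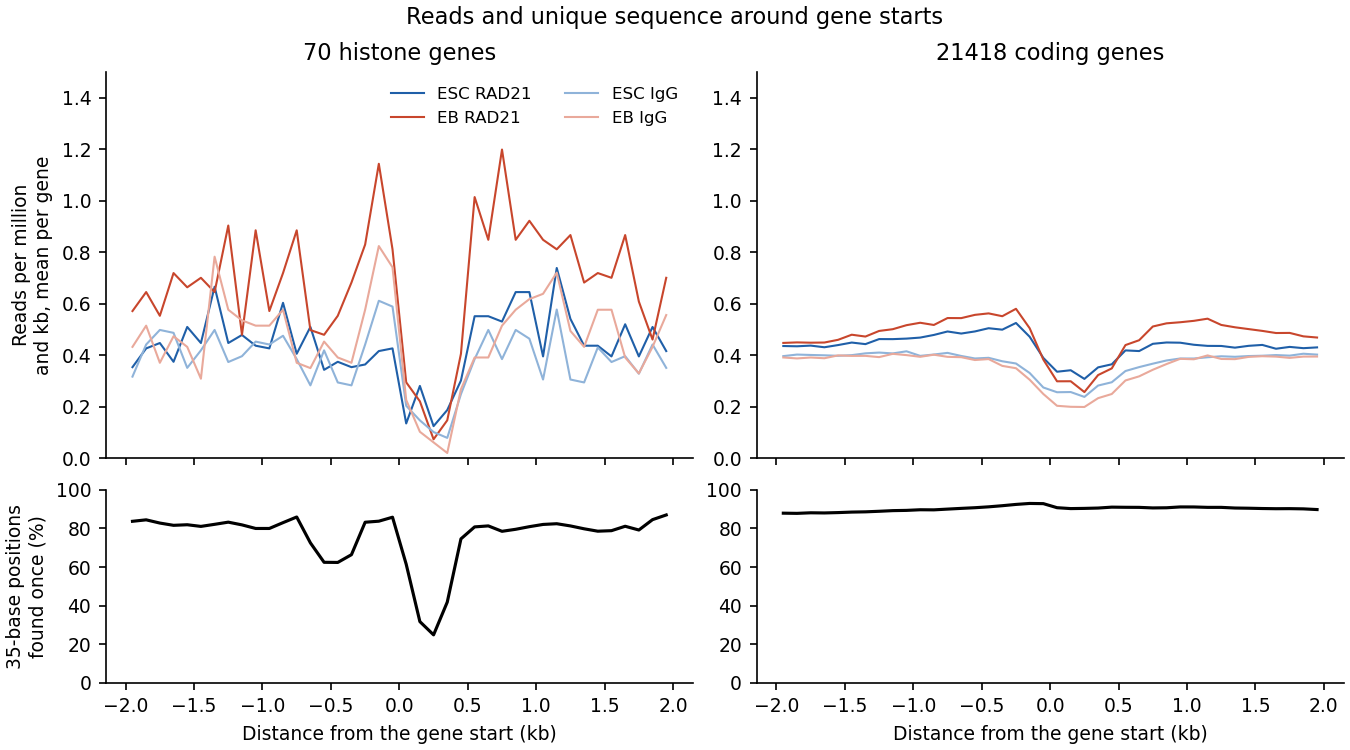
The upper panels plot mean RPM per kb in 100 bp bins against distance from the gene start (kb) for the 70 histone genes and the 21418 coding genes; the lower panels plot the percentage of 35-base positions found once in the genome. At histone genes EB RAD21 is the highest of the 4 libraries in 33 of 40 bins, and every library is low in the dip where the unique share falls to 24.9%.

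Among single genes, 22 of the 70 (31.4%) had an EB over ESC RAD21 ratio of at least 2, where 13.1% of coding genes did, and 3 (4.29%) had a ratio of at most 0.5, where 11.2% did. The median was 1.74 against 1.09. These counts hold the 6 genes that could not be measured: Hist1h4n, with 0 and 1 reads, is among the 22, and the 5 genes with 0 reads enter the median by the added read alone. The interval of the unadjusted ratio lay above 1 for 11 of the 70 genes and below 1 for 2. Some of these 11 were divergent partners that shared reads. Among the 60 genes with a unique share of at least 50%, a limit set after the values were seen, 20 (33.3%) reached 2, 3 (5%) were at or under 0.5 and the median was 1.55, against 13.3%, 11.5% and 1.06 of such coding genes. An added read weighs more in the shallower EB library. With added reads scaled to depth, a choice made after the values were seen, 21 genes (30%) and 10.9% of coding genes reached 2. With windows of 2 kb to each side, 10 genes (14.3%) did, against 9.03% of coding genes. In the IgG libraries 9 genes reached 2 (12.9%; coding genes 9.93%) and 4 were at or under 0.5 (5.71%; coding genes 12.6%).

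Hist1h2ag, an H2A gene, had 7 ESC and 17 EB RAD21 reads, a ratio of 3.99, with 9 IgG reads in each cell type. Its divergent H2B partner Hist1h2bj had 15 and 24 reads (2.77). Hist1h2bb, another H2B gene, had 8 and 19 reads (3.94) with 12 and 9 IgG reads. Hist2h2aa2 had 2 and 5 reads (3.54), a difference of a few reads. The divergent pair Hist1h2ak and Hist1h2bn had 10 and 12 ESC reads and 20 and 23 EB reads, with ratios of 3.38 and 3.27. In these genes the deeper ESC library held fewer RAD21 reads than the EB library.

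The 3 genes at or under 0.5 were Hist1h1t, Hist1h2aa and Hist1h2al. Hist1h1t, which encodes the testis linker histone H1t, had 12 ESC and 2 EB RAD21 reads (0.41), but its IgG reads fell likewise, from 13 to 1 (0.26). Hist1h2aa had 24 and 5 RAD21 reads (0.43), with 6 and 4 IgG reads. Its partner Hist1h2ba had 21 and 6 (0.56), with 6 and 2 IgG reads. Hist1h2al, which lies by itself, had 9 ESC RAD21 and 4 ESC IgG reads and none in either EB library, where a count of 0 allows up to 3. Of the 3 genes at or under 0.5, Hist1h2aa and Hist1h2al had an interval of the unadjusted RAD21 ratio that ended below 1 (0.987 and 0.898). That of Hist1h1t included 1.

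Of the highest and lowest IgG ratios, Hist1h3d had 3 ESC and 6 EB IgG reads (3.18), Hist1h3c had 6 and 10 (2.86), Hist1h1t had 13 and 1 (0.26) and Hist2h4 had 12 and 1 (0.28). The high EB ratio of RAD21 to IgG at Hist2h4 thus arose with a low EB control, as its RAD21 reads were 15 and 13.

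The outlying clusters behaved as follows. In Hist3, the H2B gene Hist3h2ba had 16 ESC and 11 EB RAD21 reads over 15 and 7 IgG reads. The pseudogene Hist3h2bb-ps had 7 and 11 RAD21 reads over 5 and 2 IgG reads, an EB ratio of RAD21 to IgG of 3.58. The adjoining Hist3h2a had 7 and 12 over 5 and 5, and much of its window is the same. Hist4h4, the single H4 gene of Hist4, had the highest ESC RAD21 count of all members, 35 reads, with 26 in EBs, but also 18 and 19 IgG reads, which left ratios of 1.74 in ESCs and 1.21 in EBs.

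The authors' peak lists held few peaks at the starts. An ESC peak overlapped the start window of 3 of the 70 genes (4.29%; coding genes 3.19%), Hist1h2ag, Hist1h2bj and Hist1h4c, and an EB peak that of 4 (5.71%; coding genes 3.16%), the same 3 and Hist1h2bl. Hist1h2ag and Hist1h2bj were touched by 1 and the same peak. A peak summit lay within 1 kb of a start only at Hist1h4c, 805 bp (ESC) and 647 bp (EB) past its start and thus beyond its stem-loop.

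Around the blocks the density of EB peaks was above that of the autosomes. From 50 kb before to 50 kb after each block, 1399 kb in all, there were 15 ESC peaks (10.7 per Mb, 6.0 to 17.7; autosomes 6.10) and 19 EB peaks (13.6 per Mb, 8.18 to 21.2; autosomes 4.36). The ESC interval included the autosomal value and the EB interval did not. The median peak score, which rises as the p-value falls, was 105 for these ESC peaks (autosomes 94.5). For the EB peaks it was 73.1 (autosomes 97.7). Of the ESC peaks 12 (80%, 51.9 to 95.7%) overlapped an EB peak, compared with 48.6% of autosomal ESC peaks. Of the EB peaks 12 (63.2%, 38.4 to 83.7%) overlapped an ESC peak, compared with 68.3%. Joined where they overlapped, the peaks formed 22 sites, of which 12 were shared, 3 were in the ESC list only and 7 in the EB list only, and 15 lay within a block. The median distance of a site from the nearest histone start was 8141.5 bp (range 805 to 95002). All 7 ESC peaks of the second Hist1 block had an EB counterpart. Hist3 had no peak in either list, and Hist1h2al and Hist4 had 1 EB peak each.

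**Figure D4:**
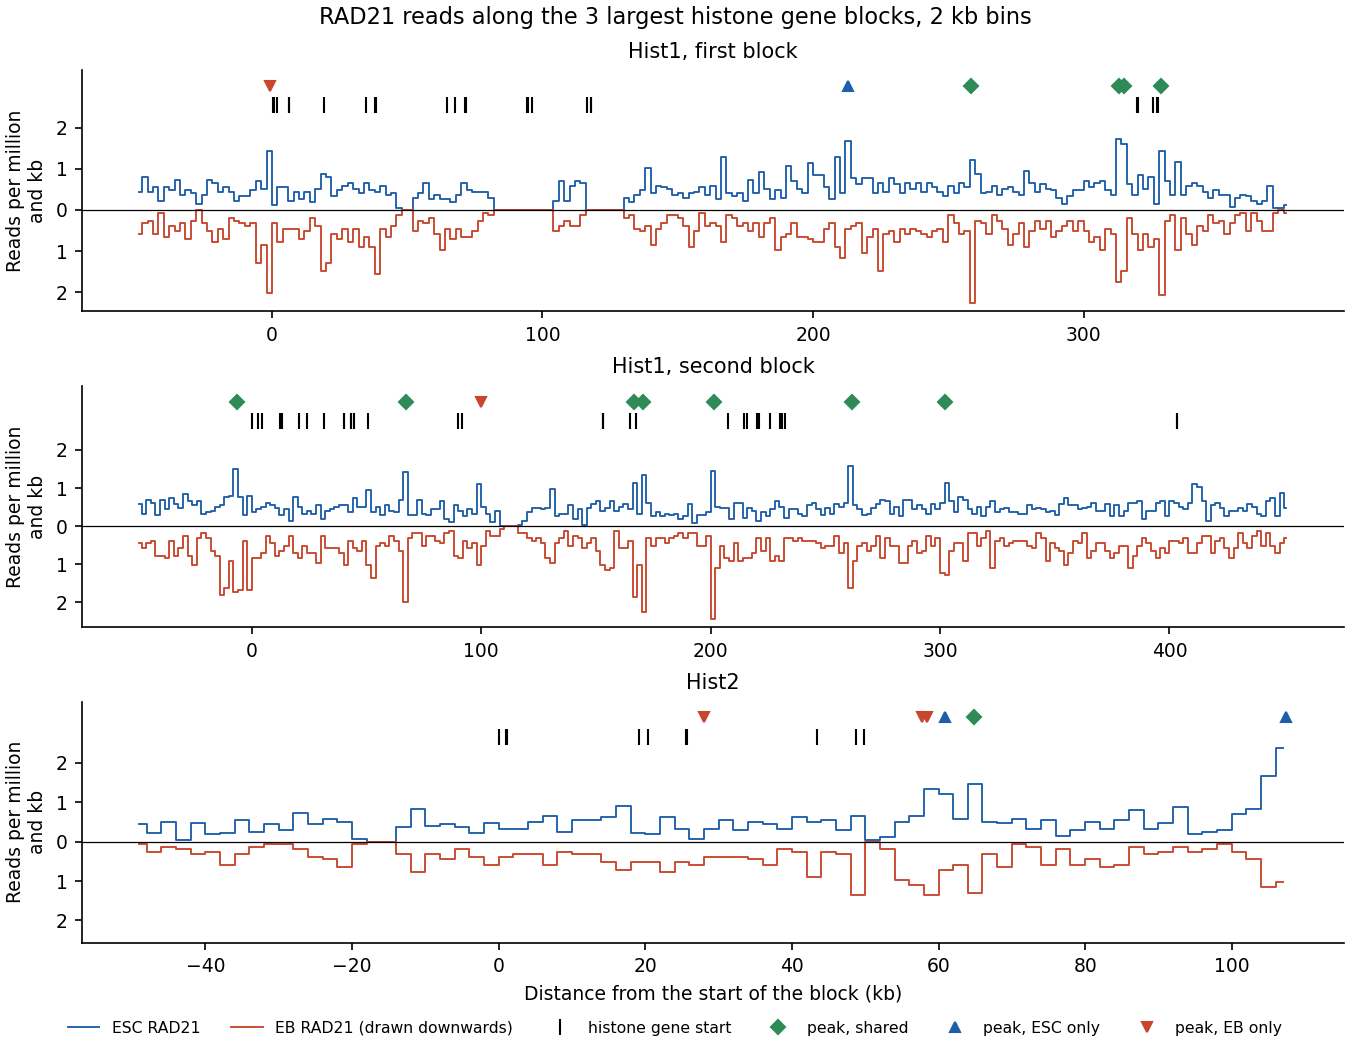
RAD21 in RPM per kb in 2 kb bins (y axis; ESC upwards, EB downwards) along the first and second Hist1 blocks and Hist2, against the distance from the block's start (kb), with histone gene starts as ticks and peak sites as symbols. The shared sites stand as narrow maxima in both cell types between or beside groups of genes, and bins in the duplicated stretch of the first block are empty.

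A CTCF motif was sought within 150 bp of each summit with a weight matrix of 20 positions learned from RAD21 peaks of other chromosomes. At a threshold that 1e-05 of random positions pass, 3 ESC and 3 EB peaks had a match (autosomes 39.2% and 31.6%), at 4 sites. At 1e-04, 12 of 15 ESC and 13 of 19 EB peaks had one (autosomes 85.8% and 80.2%). The 4 sites with the stronger match are shown with 40 bp to each side and the match in capitals, as these are the places where the sequence and RAD21 can be set side by side; the sequences run along the strand of the motif.
Hist1h2bl site, chr13:21806737-21806836, plus strand: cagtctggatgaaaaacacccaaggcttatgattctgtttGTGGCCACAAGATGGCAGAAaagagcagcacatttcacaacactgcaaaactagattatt
Hist1h2be site, chr13:23690000-23690099, minus strand: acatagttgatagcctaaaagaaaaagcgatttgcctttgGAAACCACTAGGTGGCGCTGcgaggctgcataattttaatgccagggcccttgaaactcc
Hist1h4c site, chr13:23789388-23789487, minus strand: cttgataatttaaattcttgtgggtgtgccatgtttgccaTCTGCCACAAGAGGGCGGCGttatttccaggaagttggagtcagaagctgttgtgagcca
Trim38 site, chr13:23884501-23884600, plus strand: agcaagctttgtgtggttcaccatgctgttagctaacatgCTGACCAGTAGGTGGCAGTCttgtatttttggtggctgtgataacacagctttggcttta

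Reads at the sites were counted within 250 bp of the summit, at shared sites that of the ESC peak. They also underlie the peak lists, so differences between listed and unlisted sites are descriptions. The 12 shared sites had 17 to 29 ESC RAD21 reads and 5 to 28 EB reads, over at most 7 and 4 IgG reads. Summed, their EB over ESC ratio was 1.36 (1.13 to 1.62), close to the 1.31 of the 7328 shared ESC peaks of the autosomes. Counted at the EB summits, which was added after the values were seen, it was 1.38 (1.15 to 1.66).

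The shared site in the annotated intron of Hist1h2be (chr13:23689550-23690506) had 26 ESC and 27 EB RAD21 reads over 1 and 2 IgG reads, a ratio of 1.84 (1.03 to 3.28). The site past the 3′ end of Hist1h4c (chr13:23789182-23789869) had 17 and 20 reads over 1 and 2, a ratio of 2.08 (1.04 to 4.24). At its EB summit, 158 bp away, there were 16 and 14 reads, a ratio of 1.55 (0.701 to 3.39) whose interval included 1. A second site 2934 bp before the Hist1h4c start, nearest to Hfe, a gene of iron regulation (chr13:23792735-23793719), had 25 and 24 reads over 6 and 1. The site 6170 bp before Hist1h1c, which encodes a linker histone (chr13:23824090-23824989), had 21 and 28 reads over 2 and 3, a ratio of 2.36 (1.29 to 4.38). The other shared sites of the second block, 6320 bp before Hist1h4h, near Trim38 and near Slc17a3, had 28, 29 and 21 ESC and 18, 21 and 14 EB reads, with intervals of the ratio that included 1.

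In the first Hist1 block the shared sites were near Pom121l2 (24 ESC and 19 EB reads), at 2 places in an intron of Gm11292 (26 and 5, and 18 and 15) and past Hist1h2bj (22 and 15). The ratio of the first Gm11292 site turned on the summit: it was 0.341 (0.102 to 0.902) at the ESC summit, and 0.975 (0.422 to 2.13), with 20 and 11 reads, at the EB summit 299 bp away. The one shared site of Hist2 lay in an intron of Fcgr1, an Fc receptor gene, 15012 bp from Hist2h2bb, with 29 and 13 reads.

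The sites listed in ESCs alone were 11076, 57647 and 95002 bp from the nearest histone start. These distances overlapped the ranges of the shared sites (805 to 69537 bp) and of the sites listed in EBs alone (1187 to 24015 bp). The site at chr13:22020088-22021122 lay in the first Hist1 block between Hist1h2br and Hist1h2ah. It had 27 ESC and 3 EB RAD21 reads, a ratio of 0.197 (0.0382 to 0.640). The site beyond Hist2h2bb (chr3:96084494-96085254) had 22 ESC reads and 1 EB read, a ratio of 0.0805 (0.00195 to 0.498). The site at chr3:96130079-96131497 had 29 and 10 (0.611, 0.266 to 1.29).

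Of the 7 sites listed in EBs alone, 4 had intervals that included 1. The Hist1h2bl site, 1187 bp from that gene's start and with a strong CTCF match, had 18 ESC and 16 EB RAD21 reads, and 9 and 4 IgG reads. The sites 8293 bp before Hist1h1e (15 and 11 reads) and in the intron (12 and 10) and an exon (16 and 14) of Hist2h2bb likewise had more ESC than EB reads before scaling. The 3 others differed: an exon of Hist2h3c1 had 3 ESC and 13 EB reads (7.68, 2.11 to 42.0), though with 12 ESC IgG reads against 2 in EBs; a site 5533 bp before Hist1h2al had 5 and 14 (4.96, 1.69 to 17.6); and the divergent start of Wbp11 and BC049715 beside Hist4h4 had 5 and 16 (5.67, 1.98 to 19.8).

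**Figure D5:**
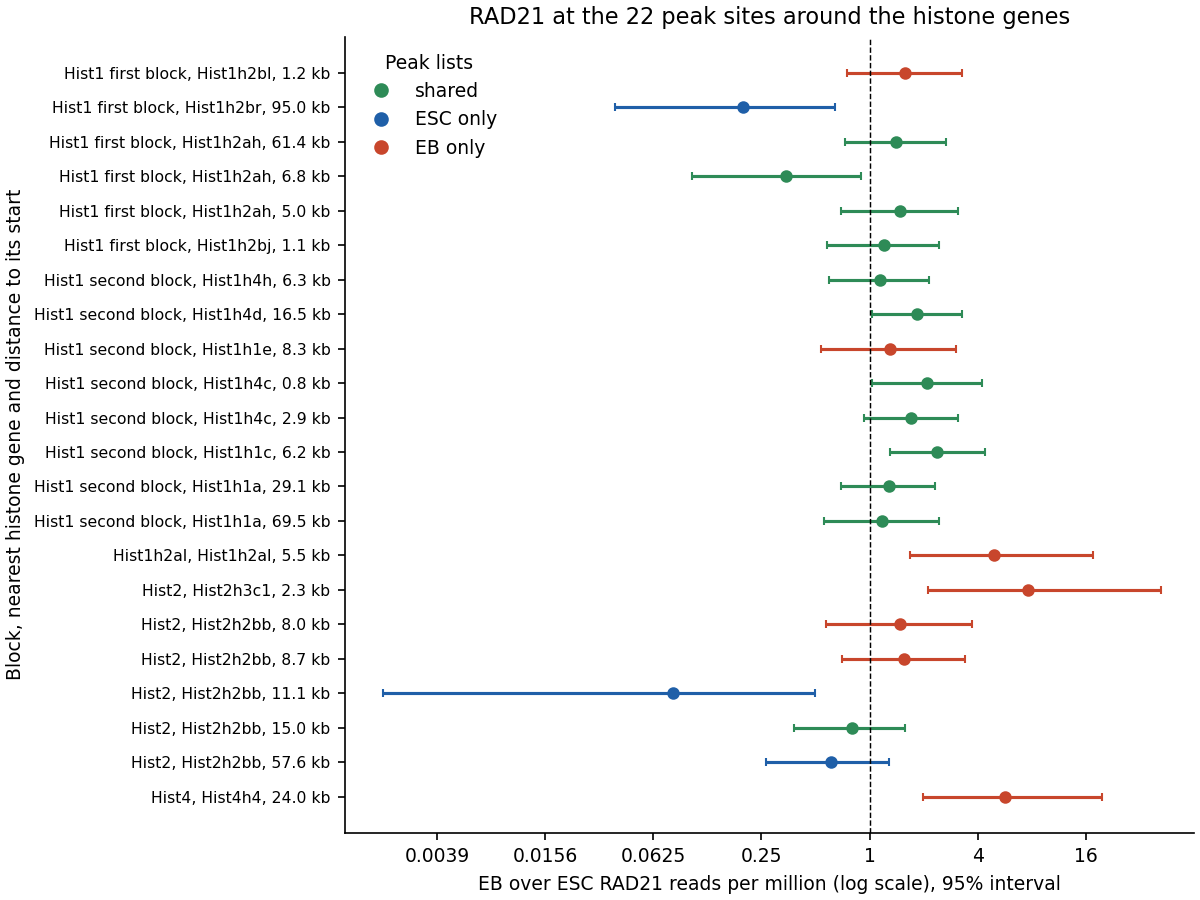
Each row is 1 of the 22 peak sites, named by block, nearest histone gene and distance to its start (y axis); the point is the EB over ESC ratio of RAD21 RPM on a log scale (x axis), the bar its 95% interval for counting error, and the colour the peak list it came from. Shared sites are counted at the ESC summit; 10 of the 12 lie above 1, and 4 of the 7 EB-only bars cross 1.

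Of the 19 names listed as regulators of histone gene expression, 17 were measured at their own starts, as Mizf is an older name of Hinfp and Cstf2 lies outside the autosomes. None of the 17 had a peak within 1 kb. In ESCs 1 of them (coding genes 16.6%) reached a RAD21 to IgG ratio of 2, Pou2f1, which encodes the octamer-binding factor Oct1, with 11 RAD21 reads and 1 IgG read (5.51), and Slbp, which encodes the stem-loop binding protein, with 7 and 3, and the cyclin gene Ccne2, with 3 reads and 1 read, followed at the same ratio (1.84). In EBs 10 of the 17 did (coding genes 25.6%), and the median over all 17 was 2.15, against 1.25 for coding genes. The 10 included Lsm11, a component of the U7 snRNP that processes histone mRNA, with 17 and 4 reads (3.22). Of the 10, Pou2f1, Ccne1, E2f1, Npat and Sympk had at most 2 EB IgG reads, and the others had 3 to 5. The 17 windows had a mean GC of 56.3%. In the GC class from 53.2 to 57.3%, 31.8% of coding genes reached 2 in EBs. The lowest ratios of the 17 were those of E2f1 (0.61) and Sympk (0.64) in ESCs and Zfp473 (0.18) and Slbp (0.54) in EBs. EB over ESC RAD21 was at least 2 for 6 genes (coding genes 13.1%) and at most 0.5 for 1 (coding genes 11.2%). Npat, which encodes the coactivator of the histone clusters, had 6 ESC and 9 EB RAD21 reads (2.53) over 5 and 2 IgG reads. Zfp473, a zinc finger protein of the same processing complex, had 11 and 0. Summed over the 17 windows, 140 ESC and 126 EB reads gave a ratio of 1.59 (1.24 to 2.04), and the IgG ratio was 0.942 (0.672 to 1.31).

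The 13 genes listed as replication-independent histone genes, of which H1f0 was annotated as a pseudogene, did not have a higher RAD21 level in EBs. Their 126 ESC and 67 EB RAD21 reads gave a ratio of 0.942 (0.690 to 1.28), an interval that ended below the lower bound of the replication-dependent genes. Their IgG ratio, 0.842 (0.575 to 1.22), was also below the 1.19 (1.03 to 1.37) of the replication-dependent genes, with intervals that overlapped. None of the 13 had a peak within 1 kb. H1fx had the highest ESC ratio of RAD21 to IgG (18 and 4 reads, 3.49) and was the only one at 2 or above (coding genes 16.6%), and H2afy the lowest (4 and 9 reads, 0.46). In EBs 3 of the 13 reached 2, a share near the 25.6% of coding genes, among them H3f3a (8 and 2 reads, 2.69) and H2afy2 (5 reads and 1 read, 2.69), and H1foo and H2afj had the lowest ratios (1 and 4 reads each, 0.36).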

How the data were processed

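The authors sequenced 35-base ChIP-seq reads and deposited 1 line per aligned read on mm9, used here as read counts; the aligner is not given in the sources used here. They called peaks with MACS per cell type against its IgG library, and deposited a score for each peak that rises as its p-value falls (lowest 50.01, for a p of 1e-05) and, for each summit, the pile-up signal in reads. Read positions did not repeat within a library. The EB IgG file ended within chromosome X, so totals and ratios used autosomes only.

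Reads were moved to the centre of fragments of 206 bp (ESC) or 198 bp (EB), counted within 1 kb of the most upstream annotated start and scaled to autosomal totals. Ratios of single genes had 1 read added to each count; sums and sites had none, with exact conditional binomial intervals (95%). Uniqueness was the share of 35-mers found once in mm9. Named genes were the 3 highest and 3 lowest ratios of each comparison, those with a peak in the window and the Hist3 and Hist4 genes; further genes were named after their values were seen. The members and gene lists were chosen with earlier results of these data known. The ratio, its interval and the uniqueness count were tested on simulated data. Python 3.11.15, numpy 2.4.6, scipy 1.17.1, pandas 2.3.3 and samtools 1.23.1 were used. Alternatives were other windows, unmoved reads, scaling by chromosome, scaled added reads, EB summits, stricter peak scores and other motif limits.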

Additional observations from a re-analysis of the deposited data

How the results depend on the processing

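With 1 library per group, no replicate could be left out and no difference tested. No paired analysis was possible because each group held a single library. Of 63 comparisons of 16 results with an alternative, 48 stayed within the limit set for them and 15 moved. In windows of 500 bp to each side, 10 histone genes reached a RAD21 to IgG ratio of 2 in ESCs and 5 had an EB over ESC ratio of at most 0.5 (coding genes 22.2% and 14.2%); in windows of 2 kb, 2 did in ESCs (coding genes 8.74%) and 10 had an EB over ESC ratio of at least 2. With a peak score of at least 100, 8 ESC and 5 EB peaks remained, of which 6 and 5 were shared, and 0 and 1 genes had a peak within 1 kb; by summit it was 1 and 1. At the looser motif limit 12 ESC and 13 EB peaks had a match, and within 75 bp 1 EB peak had one. The summed EB over ESC RAD21 ratio stayed between 1.49 and 1.71. Depth limited single genes to a median of 10 RAD21 reads, at which few ratios could be told from 1, and repeated sequence left 6 genes unmeasured. The IgG libraries rose at the same starts; their part in the RAD21 difference was not tested.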
